A study of Mus musculus with 15 samples.

Results

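The cytosolic ribosomal proteins are the protein building blocks of the small and large subunits of the ribosome, and this account follows their mRNAs through the maturation of mouse XCR1+ dendritic cells. Members were taken by gene symbol (Rpl or Rps followed by a number, together with Rplp0, Rplp2 and Rpsa, and without the Rps6k kinases) among genes with a microarray probe set that carries a single symbol. The rule found 49 of 18194 genes. Of these, 43 are standard components of the ribosome (21 of the small and 22 of the large subunit), called core members here, and 6 are paralogs, that is, related copies of a core gene: Rpl22l1, Rps27l, Rpl3l, Rpl39l, Rpl7l1 and Rps4l. Another 9 names covered by the rule had no probe set of a single symbol and were not analysed here.

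XCR1+ dendritic cells are the dendritic cell lineage known for cross-presenting antigen to CD8 T cells. The arrays, 15 in all and 3 in each of 5 groups, held RNA from sorted cells. Immature cells were sorted as CD11c+ CD317- CD172a- CD117+ CCR7- from the thymus or the spleen of untreated mice. Mature cells were sorted as CD11c+ CD317- CD172a- CD117- CCR7+ from thymus and spleen of untreated mice, and are called homeostatically matured in the labels. A further set of mature spleen cells, with the same gate, came from mice that received 10 µg of polyI:C, a synthetic double-stranded RNA that engages TLR3, into the peritoneum 18 h earlier. Immature and mature cells thus differ by gate as well as by state, XCR1 itself was not part of the gates, and no injected control for polyI:C is described. No source used here gives the strain or age of the mice. Nothing says whether the 3 arrays of a group came from separate animals, so p-values measure only the spread between these samples, which may be technical.

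Ribosomal protein mRNAs are abundant, long-lived transcripts of housekeeping genes. Most begin with a C followed by a run of pyrimidines, the terminal oligopyrimidine (TOP) motif, through which mTOR and LARP1 control their translation as a group. Making a ribosome also needs a separate set of assembly factors, which are under strong control by MYC. Dendritic cells are known to change both translation and mTOR activity when they mature. Several ribosomal proteins have paralogs that can replace them in some ribosomes or are expressed in particular tissues.

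Pyrimidine runs near the annotated starts of the genes on which the results turn are shown first. The reason is that the TOP motif is the feature that this family shares. Each sequence runs from 50 bases before the annotated transcript start to the first 25 bases of exon 1 and is taken from RefSeq on mouse build GRCm38.p6, on the strand of the gene, 5′ to 3′. Capitals mark the longest run of at least 8 C or T bases within 30 bases of the start, and the first of them where 2 are equally long, as in Rps27l. The position follows each gene name, with the strand in brackets.

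Rps27l at chr9:66946036-66946110 (+): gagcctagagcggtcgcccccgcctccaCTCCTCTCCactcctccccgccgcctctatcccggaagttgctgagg
Rpl39l at chr16:10170178-10170252 (+): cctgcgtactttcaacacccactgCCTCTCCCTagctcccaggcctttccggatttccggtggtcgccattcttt
Rpl7l1 at chr17:46782632-46782706 (-): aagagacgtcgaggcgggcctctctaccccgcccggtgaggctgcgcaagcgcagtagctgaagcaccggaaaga
Rpl22l1 at chr3:28805458-28805532 (+): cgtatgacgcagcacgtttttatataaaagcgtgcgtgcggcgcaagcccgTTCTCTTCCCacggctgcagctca
Rps6 at chr4:86857343-86857417 (-): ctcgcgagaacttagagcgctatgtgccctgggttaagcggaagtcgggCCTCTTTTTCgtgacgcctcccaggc
Rpl14 at chr9:120571467-120571541 (+): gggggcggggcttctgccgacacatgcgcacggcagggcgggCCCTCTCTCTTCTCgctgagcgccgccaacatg
Rpl4 at chr9:64173337-64173411 (+): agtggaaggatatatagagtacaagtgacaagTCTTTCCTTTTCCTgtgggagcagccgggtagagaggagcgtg
Rps27 at chr3:90213624-90213698 (-): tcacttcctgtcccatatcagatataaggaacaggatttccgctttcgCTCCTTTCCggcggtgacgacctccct

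The runs of the core genes Rps6, Rpl14 and Rpl4 are 10, 14 and 14 bases long, and Rpl7l1 has none of at least 8 bases in this stretch. The runs of Rps27l, Rpl39l and Rpl4 begin at -22, -26 and -18 relative to the annotated start and end before it. As annotated, these runs lie outside the transcript and are not shown to be TOP motifs. Those of Rps6, Rpl14 and Rps27 span the start, and that of Rpl22l1 begins at base 2. Promoter windows (250 bases before the start and 50 from it) were found for 43 of the 49 members, 51 windows in all. A run of at least 8 C or T bases, within 30 bases either side of the start, stood in 25 of the 51 windows (49.0%). It stood in 22.9% of all 32851 windows of that length. The ETS-type motif CCGGAAG, searched on both strands over the whole window, stood in 41.2% of member windows and 8.9% of all windows. The YY1-type motif AAGATGGC stood in 7.8% against 2.7%, and the E-box CACGTG, the site of MYC and its partners, in 9.8% against 7.2%. These are matches of letters only.

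The values were the authors' log2 RMA signals, so a difference of 1 is a 2-fold difference. A gene was tested if it exceeded 4.39, the 40th percentile of all values, on at least 3 arrays, which 13629 genes did. Among members 47 passed, 42 of them core members and 5 paralogs. Rpl3l, the striated-muscle paralog of Rpl3, lay between 3.17 and 3.73 on every array, and the single-symbol probe set of Rps16 between 2.59 and 3.11; neither was tested. The number of arrays limits the precision. All tests are limma's moderated tests on the 15 arrays with Benjamini-Hochberg adjustment over the 13629 genes, and a gene is called, or said to rise or fall, at an adjusted p below 0.05.

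Array medians ran from 4.86 to 5. The 3′ minus 5′ difference of the β-actin control probe sets, which grows as RNA is degraded or shortened by amplification, was 2.09 on spleen CCR7+ replicate 1, 1.59 on polyI:C replicate 1 and 0.49 to 1.25 on the other 13 arrays. Results that rest on these arrays are given with and without them. Xcr1 averaged 11.40 and 11.58 in the immature thymic and splenic cells but 5.25, 8.03 and 7.54 in thymic mature, splenic mature and polyI:C cells. All 9 XCR1+ dendritic cell markers with a value (of 10 listed) exceeded 4.39 in every group. Markers of other cells moved with the groups. The log2 of the summed T cell markers (7 of 8 listed) was 9.95 to 11.33 in thymic mature cells against 8.10 to 9.13 in thymic immature cells. That of B cell markers (5 of 6 listed) was 11.93 to 13.50 in splenic mature cells and 10.17 to 11.08 in polyI:C cells, without overlap. That of macrophage markers (6 of 6 listed) was 11.65 to 12.04, 11.70 to 12.13 and 10.95 to 11.04 in the 3 mature groups and 9.83 to 10.69 in the immature ones. Vcam1 makes up most of that sum, with group means of 10.08 and 11.67 in thymus and 9.93, 11.77 and 10.78 in spleen. C1qa, C1qb, C1qc and Mertk were also higher in each mature group than in the immature one of its organ. Mean C1qa was 4.93 and 6.38 in thymus and 5.44, 5.58 and 5.77 in spleen. Adgre1 (F4/80) was lower in each mature group than in the immature one of its organ. The log2 sum of SIRPα+ dendritic cell markers (5 of 6 listed) was 8.18 to 8.72 and 9.80 to 10.20 in immature and mature thymic cells. In spleen it was 8.23 to 9.21, 9.17 to 9.97 and 10.49 to 10.76 in immature, homeostatically matured and polyI:C cells. Its members did not move together. Irf4 averaged 5.82 and 9.05 in thymus and 6.87, 8.07 and 10.09 in spleen, and Esam was also higher in each mature group. Sirpa averaged 6.18 and 6.37 in thymus and 6.45, 6.56 and 6.83 in spleen. Cd209a and Mgl2 were lower in each mature group than in the immature one of its organ. Neutrophil markers (4 of 4 listed) read 7.29 to 7.42 after polyI:C and 6.22 to 7.13 elsewhere. Thymic epithelial markers (4 of 4 listed) read 10.50 to 10.66 and 8.88 to 9.24 in immature and mature thymic cells and 7.01 to 7.88 in spleen cells. Epcam averaged 10.44 and 8.17 in immature and mature thymic cells and Foxn1 4.77 and 4.66. Krt8 (5.80 and 7.24) and Krt5 (5.48 and 5.82) went the other way. The part of all these markers in the results below was not tested.

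The probe sets of core members ranged less across the 5 groups than those of the paralogs. The range of the 5 group means had a median of 0.47 over the 42 core members, from 0.08 for Rps20 to 1.48 for Rpl14, and a median of 1.70 over the 5 paralogs, from 0.52 for Rps4l to 2.14 for Rps27l. The pooled spread within groups was also wider for the paralogs, with a median SD of 0.44 against 0.15. Core members with a range of at least 1 were Rpl14, Rpl12 and Rps6. Many core probe sets are close to the highest signal of an array, which was 14.24 to 14.40. The range had a median of 0.32 over the 20 core members whose mean was above 13 and of 0.57 over the other 22. The part that compression of bright signals has in these small ranges was not tested. A moderated F test found a difference among the groups for 17 of the 47 members (36.2%), against 57.0% of all genes tested.

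**Figure D1:**
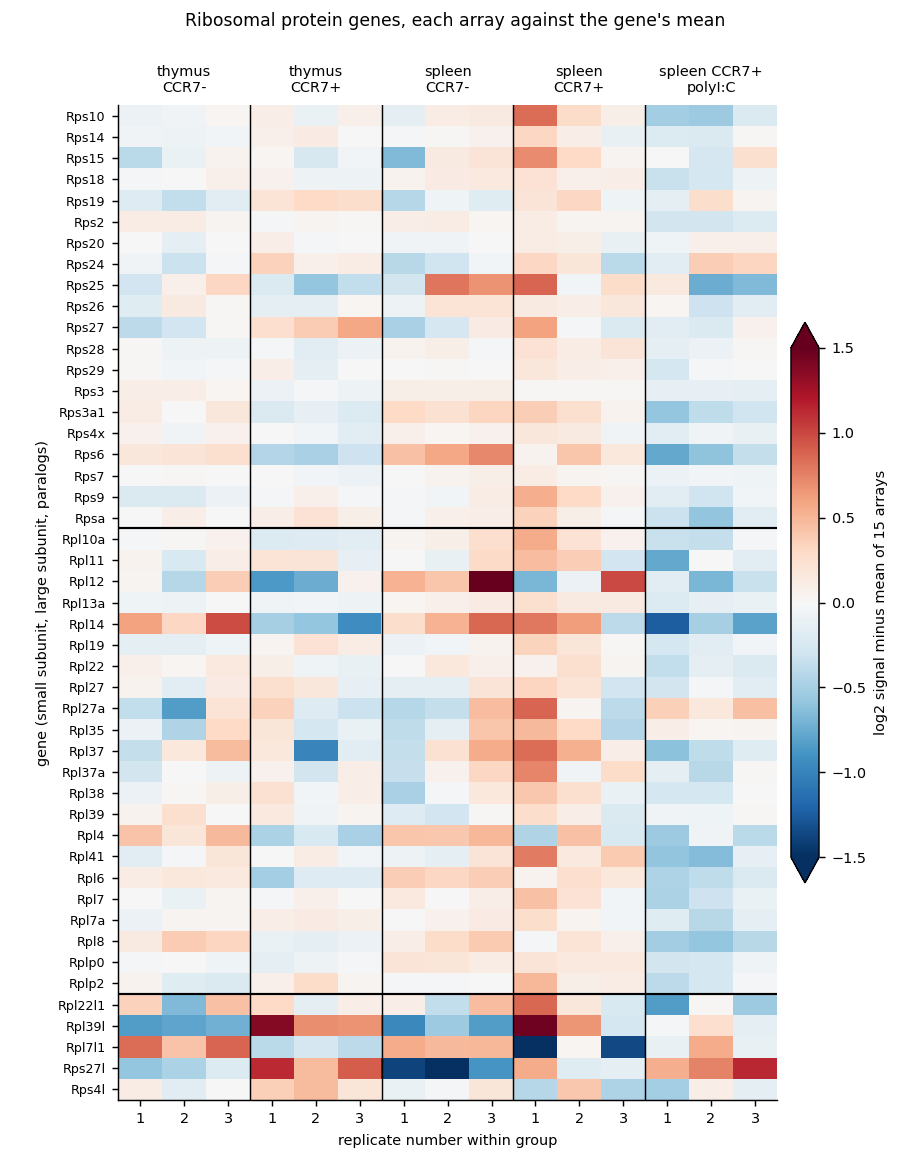
Log2 signal of each of the 47 tested members (one line each) on each of the 15 arrays (columns, grouped by condition), drawn as the difference from that gene's mean over all arrays. Most core members stay close to their mean, the 3 polyI:C arrays are mostly below it, and Rps27l, Rpl39l and Rpl7l1 show the widest swings.

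The paralogs are described first because Rps27l, Rpl7l1 and Rpl39l had the widest ranges of group means of all tested members. Rps27l, the paralog of Rps27 known as a transcriptional target of p53, was higher in mature cells of every kind. It read 11.23, 11.33 and 11.61 in immature and 12.93, 12.28 and 12.72 in mature thymic cells. In spleen it read 10.42, 10.19 and 10.92 in immature cells, 12.37, 11.63 and 11.68 in homeostatically matured cells and 12.35, 12.55 and 12.94 after polyI:C. Each mature group lay wholly above the immature group of its organ.

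Rps27l rose by 1.25 ± 0.25 (log2 change ± SE, here and below) in thymic maturation, 2.38-fold, with an adjusted p of 0.00102. In homeostatic splenic maturation it rose by 1.38 ± 0.25 (2.60-fold, adjusted p = 0.000612). From immature to polyI:C-matured spleen cells it rose by 2.10 ± 0.25 (4.30-fold, adjusted p = 7.78e-06), the highest rise of any member there. No alternative processing or left-out array ended these 3 calls, and the other 2 probe sets of the gene rose by 0.91 to 2.08 in the same comparisons. The polyI:C and homeostatically matured spleen cells differed by 0.72 ± 0.25, which did not pass (adjusted p = 0.0585).

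Rpl39l, the paralog of the exit-tunnel protein gene Rpl39 that is known for its expression in testis, also rose in homeostatic maturation. Immature cells read 5.21, 5.25 and 5.32 in thymus and 5.08, 5.50 and 5.20 in spleen. Homeostatically matured cells read 7.42, 6.74 and 6.72 in thymus and 7.50, 6.71 and 5.78 in spleen, and polyI:C cells 6.01, 6.30 and 5.91. Every mature array was above every immature one.

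The rise of Rpl39l was 1.70 ± 0.32 in thymus (3.25-fold, adjusted p = 0.000708) and 1.40 ± 0.32 in spleen (2.64-fold, adjusted p = 0.00344), and no alternative ended either call. The immature level is close to the filter value of 4.39, where RMA compresses differences, so these folds are ratios of signals. After polyI:C its mean was 0.81 ± 0.32 above that of immature cells, which did not pass (adjusted p = 0.053). Rpl39 itself was not called in any comparison, with thymic and splenic homeostatic changes of -0.06 and 0.20.

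Rpl7l1, the paralog of the large subunit gene Rpl7, went the other way. It read 10.31, 9.90 and 10.34 in immature and 9.07, 9.22 and 9.08 in mature thymic cells. In spleen it read 10.03, 9.96 and 9.97 in immature, 7.78, 9.50 and 8.12 in homeostatically matured and 9.36, 10.03 and 9.36 in polyI:C cells. The homeostatically matured arrays lay below the immature ones in both organs, whereas the polyI:C arrays overlapped both splenic groups.

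Rpl7l1 fell by 1.06 ± 0.33 in thymus (adjusted p = 0.0197) and fell by 1.52 ± 0.33 in homeostatic splenic maturation (2.87-fold, adjusted p = 0.00229). Its polyI:C change against immature cells, -0.41, was not called (adjusted p = 0.337). PolyI:C cells were 1.11 ± 0.33 above homeostatically matured ones (adjusted p = 0.0299), but this call ended without spleen CCR7+ replicate 1, without spleen CCR7+ replicate 3 or without polyI:C replicate 2, with adjusted p up to 0.179. The thymic call ended when any of 4 arrays was left out (replicates 1 and 3 of either thymic group, adjusted p up to 0.0674). The second Rpl7l1 probe set changed by -0.99 in both homeostatic comparisons. In spleen it read 9.08, 9.16 and 9.17 in immature, 7.91, 8.44 and 8.09 in homeostatically matured and 8.68, 8.76 and 8.56 in polyI:C cells. On that probe set the polyI:C arrays thus lay between the 2 other splenic groups and overlapped neither.

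Rpl22l1, the paralog of Rpl22, and Rps4l, the paralog of Rps4x, were not called anywhere. The group means of Rpl22l1 were 10.04 and 10.09 in immature and mature thymus, 10.07 and 10.27 in immature and mature spleen, and 9.55 after polyI:C. Its arrays within a group spread by up to 0.61 (SD), and its polyI:C change of -0.52 had an adjusted p of 0.227. Rps4l means ran from 6.56 to 7.08.

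**Figure D2:**
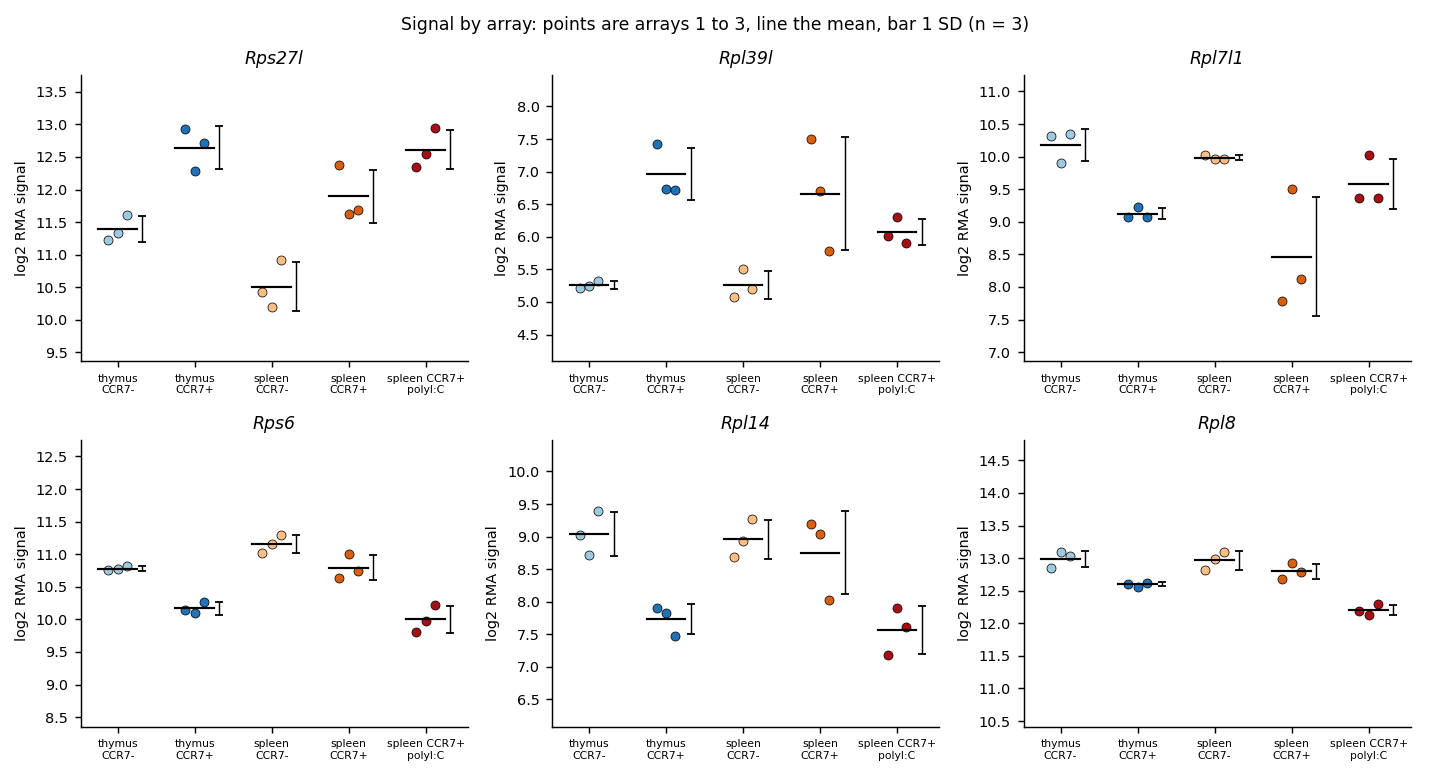
Log2 RMA signal of 3 paralogs (Rps27l, Rpl39l, Rpl7l1) and 3 core members (Rps6, Rpl14, Rpl8) on every array, by group; points are arrays, lines the group mean and bars 1 SD either side (n = 3). Each panel spans the same number of log2 units. Rps27l and Rpl39l are higher in all mature groups, Rpl7l1 is lower in the 2 homeostatically matured groups, and Rps6, Rpl14 and Rpl8 are lowest after polyI:C.

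In homeostatic maturation of spleen cells no core member was called in either direction by limma. At an unadjusted p below 0.05 there were 2 higher and 2 lower, and the smallest adjusted p was 0.0535, that of Rps6 (-0.37). The members called were thus Rps27l and Rpl39l (higher, 2 of 47, where 12.3% of all genes rose) and Rpl7l1 (lower, 1 of 47, where 24.1% fell). For 39 of the 42 core members the 95% interval of the change lay within a 2-fold difference either way, the others being Rpl12, Rpl27a and Rpl37. The median core change was 0.10, against -0.03 for all genes, and 0.00 without spleen CCR7+ replicate 1, the array with the high β-actin difference. Without spleen CCR7+ replicate 3 there were 3 core members higher and 1 lower (median 0.16), and without replicate 2 there were 1 higher and 2 lower.

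In thymic maturation 4 of 47 members rose, where 16.8% of all genes did, and 6 fell, where 20.4% did. Among the 42 core members 2 rose and 5 fell, with a median change of -0.01 against -0.06 for all genes. The large subunit genes Rpl14, Rpl4, Rpl6 and Rpl8 and the small subunit gene Rps6 were the core members that fell. Rps19 and Rps27, both of the small subunit, rose.

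Rpl14 read 9.02, 8.72 and 9.39 in immature and 7.91, 7.83 and 7.48 in mature thymic cells. It fell by 1.31 ± 0.29 (2.47-fold, adjusted p = 0.00255). Rpl4, whose protein lines the peptide exit tunnel, read 13.37, 13.12 and 13.43 against 12.47, 12.71 and 12.45 and fell by 0.76 ± 0.20 (adjusted p = 0.00819). Neither call ended under any alternative, and the arrays of the 2 groups did not overlap for either gene.

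Rps6, the protein that S6 kinases phosphorylate downstream of mTOR, read 10.75, 10.77 and 10.82 in immature and 10.14, 10.09 and 10.27 in mature thymic cells. It fell by 0.61 ± 0.14 (adjusted p = 0.00328). Averaging the probe sets of Rps6, of which the second is dim, moved the change to -0.19 and ended the call. Rpl6 fell by 0.43 (adjusted p = 0.0129) and Rpl8 by 0.39 (adjusted p = 0.0207).

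Rps19, the gene most often mutated in Diamond-Blackfan anaemia, read 12.12, 11.95 and 12.15 in immature thymic cells and 12.52, 12.61 and 12.58 in mature ones. It rose by 0.49 ± 0.15 (adjusted p = 0.0155), with separate groups. The probe set of Rps27 is dim and read 5.13, 5.24 and 5.54 against 5.78, 5.91 and 6.11. Its rise of 0.63 ± 0.21 (adjusted p = 0.0303) ended under 6 of 18 alternatives, with adjusted p up to 0.111. Without thymic CCR7- replicate 2 the count of members that rose went from 4 to 2.

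From immature to polyI:C-matured spleen cells the core members that were called all fell. There were 15 of 42 (0 higher), and over the 47 members 1 rose, where 18.4% of all genes did, and 15 fell, where 28.0% did. The share of core members that fell, 35.7%, is thus not far from the background. In the 1362 tested genes with the highest signal, where 35 of the 42 core members lie, 30.1% fell and 29.6% rose. The median core change was -0.24, against 0.02 for all genes, and 34 of the 42 were below 0. For 21 of the 42 all 3 polyI:C arrays lay below all 3 immature arrays, where this held for 31.7% of all genes. By subunit, 7 of 20 small subunit genes (median -0.18) and 8 of 22 large subunit genes (median -0.34) fell. Without spleen CCR7- replicate 2, spleen CCR7- replicate 3 or polyI:C replicate 2 the count fell to 9, 8 and 9 of the core members. Of all genes 43%, 42.3% and 46% were called in either direction under these settings, against 46.4% in the main fit.

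PolyI:C cells also lay below homeostatically matured spleen cells. This comparison uses the same 3 polyI:C arrays, so it is no separate evidence. Here 16 of 42 core members were lower and 0 higher, and over the 47 members 16 were lower, where 9.66% of all genes were, and 1 higher (Rpl7l1), where 8.58% were. Among the 1362 genes with the highest signal 13.4% were lower and 11.9% higher. All 3 polyI:C arrays lay below all 3 homeostatically matured arrays for 26 of the 42 core members, where this held for 13.8% of all genes. The median core change was -0.36, against 0.01 for all genes, and 40 of the 42 were below 0.

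The size of that second count rests on single arrays. It was 7, 10, 8 and 7 without spleen CCR7+ replicate 1, spleen CCR7+ replicate 2, polyI:C replicate 1 and polyI:C replicate 2. Of all genes 18.5%, 16.3%, 14.9% and 16.1% were called in either direction under these settings, against 18.2% in the main fit. Without both arrays of high β-actin 3′ minus 5′ difference the core count was 6, with a median core change of -0.27, and 16.2% of all genes were called. Fitting only the 6 arrays of this comparison left 1 core member, where 7.93% of all genes were called. The summed B cell markers given above also separate these 2 groups, as do those of SIRPα+ dendritic cells, macrophages and neutrophils. Of the SIRPα+ markers Irf4, Sirpa and Mgl2 averaged higher with polyI:C, and Esam and Cd209a lower. Of the macrophage markers Vcam1, C1qc and Adgre1 averaged lower with polyI:C, and C1qa, C1qb and Mertk higher. T cell markers (7 of 8 listed) read 8.86 to 9.26 with polyI:C and 7.88 to 8.26 without, Cd8b1 averaging 8.37 and 6.31. Plasmacytoid dendritic cell markers (5 of 5 listed) read 11.79 to 12.27 and 9.98 to 11.23. Of these Bst2 averaged 11.93 and 9.21, while Siglech, Ly6d, Tcf4 and Ccr9 were lower after polyI:C. NK cell, erythroid and thymic epithelial sums overlapped. The XCR1+ dendritic cell markers (9 of 10 listed) read 13.13 to 13.38 with polyI:C and 13.53 to 14.14 without. All of them but Zbtb46 averaged lower with polyI:C. The part of these markers in the result was not tested.

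**Figure D3:**
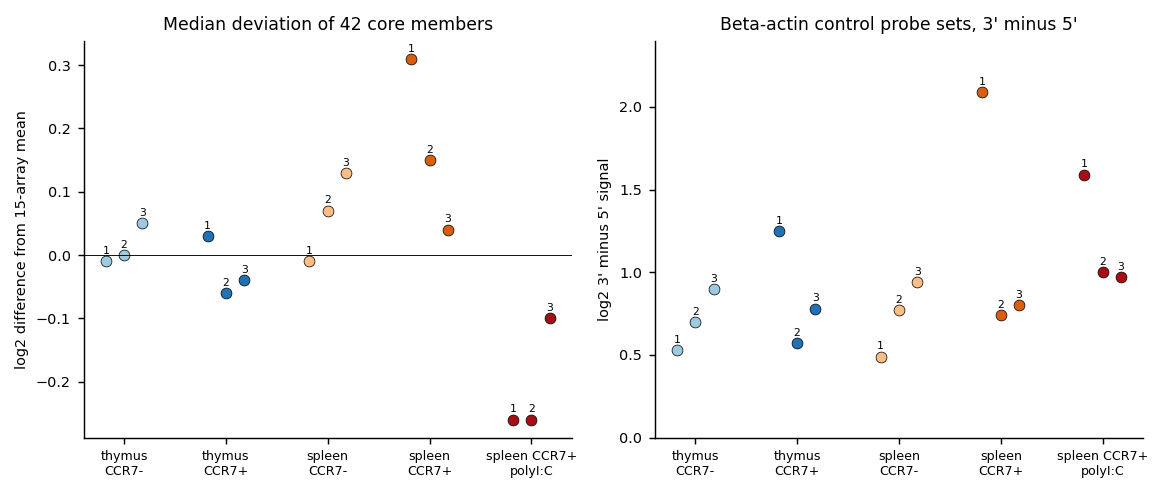
For each array (points, grouped by condition), the median deviation of the core members from their own means over all arrays (log2) and the 3′ minus 5′ difference of the β-actin control probe sets (log2). The 3 polyI:C arrays have core medians from -0.26 to -0.10, the 3 homeostatically matured spleen arrays from 0.04 to 0.31, and spleen CCR7+ replicate 1 has both the highest core median and the highest β-actin difference.

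Array by array, the median deviation of the core members was -0.26, -0.26 and -0.10 in polyI:C cells and 0.31, 0.15 and 0.04 in homeostatically matured spleen cells. It lay between -0.06 and 0.13 on the other 9 arrays. PolyI:C cells had the lowest of the 5 group means for 30 of the 42 core members, and homeostatically matured spleen cells the highest for 25. As in any bulk RNA measured at a fixed input, a lower share of the RNA and less RNA per cell cannot be told apart.

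In the small subunit Rps6 had the largest fall from immature to polyI:C cells. It read 11.02, 11.16 and 11.30 in immature spleen cells, 10.63, 11 and 10.74 in homeostatically matured cells and 9.81, 9.97 and 10.22 after polyI:C, with the polyI:C arrays below both other groups. The change was -1.16 ± 0.14 against immature cells (2.24-fold lower, adjusted p = 1.07e-05) and -0.79 ± 0.14 against homeostatically matured cells (adjusted p = 0.00141). Neither call ended under any of 19 alternatives.

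Rps3a1, a small subunit protein, had group means of 13.65 ± 0.05 (SD, n = 3) in immature spleen cells, 13.59 ± 0.16 in homeostatically matured and 12.95 ± 0.14 in polyI:C cells. Its polyI:C changes were -0.70 (adjusted p = 0.000298) and -0.64 (adjusted p = 0.00237). Rps10 read 11.78, 12.04 and 12.06 in immature spleen cells, 12.77, 12.21 and 12.02 in homeostatically matured cells and 11.41, 11.39 and 11.71 after polyI:C. It was 0.83 ± 0.18 lower than in homeostatically matured cells (change -0.83, adjusted p = 0.00465), and its change against immature cells was -0.46 (adjusted p = 0.048).

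Rps25, a protein needed for translation from several internal ribosome entry sites, fell by 0.82 ± 0.31 against immature cells (adjusted p = 0.0449), but the arrays of the 2 groups overlapped and 8 of 19 alternatives ended the call. Rpsa, which also serves as the laminin receptor, fell by 0.42 against immature cells (adjusted p = 0.0213) and by 0.50 against homeostatically matured cells (adjusted p = 0.0205), calls that ended under 4 and 5 of 19 alternatives, in both without polyI:C replicate 2. Rps2 and Rps18 fell by 0.33 each against immature cells. The narrowest range was that of Rps20, one of the probe sets close to the array maximum. It had group means of 13.50, 13.57, 13.52, 13.58 and 13.58, and its 95% intervals of the signal difference lay between -0.26 and 0.32 in the 6 comparisons.

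In the large subunit the falls from immature to polyI:C cells with the lowest adjusted p were those of Rpl8, Rpl6, Rpl14 and Rpl4. Rpl14 read 8.68, 8.93 and 9.27 in immature spleen cells, 9.20, 9.04 and 8.02 in homeostatically matured cells and 7.18, 7.91 and 7.61 after polyI:C. PolyI:C arrays lay below both other spleen groups. The change was -1.39 ± 0.29 against immature cells (2.63-fold lower, adjusted p = 0.00119), which no alternative ended. Against homeostatically matured cells it was -1.19 ± 0.29 (adjusted p = 0.0113), and this call ended without polyI:C replicate 1 (highest adjusted p over the alternatives 0.137).

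Rpl8, which sits at the peptidyl transferase centre, read 12.81, 12.99 and 13.10 in immature spleen cells, 12.68, 12.92 and 12.79 in homeostatically matured cells and 12.19, 12.13 and 12.29 after polyI:C. It fell by 0.77 ± 0.12 against immature cells (adjusted p = 0.000135) and by 0.59 ± 0.12 against homeostatically matured cells (adjusted p = 0.00391). The 3 polyI:C arrays were the lowest of all 15. Rpl6 fell by 0.70 ± 0.12 (adjusted p = 0.000298) and by 0.50 (adjusted p = 0.0118) in the same comparisons.

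Rpl4 read 13.36, 13.34 and 13.44 in immature and 12.39, 12.89 and 12.54 in polyI:C spleen cells, a fall of 0.77 ± 0.20 (adjusted p = 0.00583). Homeostatically matured spleen cells read 12.49, 13.38 and 12.71, so polyI:C cells overlapped them, and that difference was not called (-0.25, adjusted p = 0.468). Rpl41, which encodes one of the shortest known proteins, read 12.97, 12.34 and 12.58 in homeostatically matured and 11.60, 11.54 and 12.07 in polyI:C cells, a change of -0.89 ± 0.18 (adjusted p = 0.00376). Its change against immature cells was -0.45 and was not called (adjusted p = 0.0612). Rpl12, a dim probe set with means of 6.45 in immature and 5.21 in polyI:C spleen cells, fell by 1.24 ± 0.41 (adjusted p = 0.0212), a call that ended without spleen CCR7- replicate 3 or without polyI:C replicate 2.

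The stalk proteins Rplp0 and Rplp2 recruit the GTPases that drive elongation. Rplp0 read 13.48, 13.47 and 13.40 in immature, 13.48, 13.44 and 13.43 in homeostatically matured and 13.01, 13.02 and 13.22 in polyI:C spleen cells. It fell by 0.36 against immature cells (adjusted p = 0.0128) and by 0.37 against homeostatically matured cells (adjusted p = 0.031). In the second comparison Rplp2 was lower too (-0.46, adjusted p = 0.0461). The call of Rplp0 there ended under 10 of 19 alternatives, among them leaving out any spleen CCR7+ array or polyI:C replicate 1 or 2. That of Rplp2 ended under 10 of 18, among them leaving out spleen CCR7+ replicate 1 or polyI:C replicate 1 or 2. Rplp2 was not called against immature cells, and whether the 2 changes of Rplp2 differ was not tested.

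Members known for roles outside protein synthesis were taken as a list of 12, of which 9 were tested. With polyI:C 4 of 9 fell against immature cells and 4 against homeostatically matured cells, where 28.0% and 9.66% of all genes did. In homeostatic splenic maturation 0 were called, and in thymic maturation 1 fell, where 20.4% of all genes did. Rpl22, which is needed for αβ T cell development, was among those that fell, by 0.32 (adjusted p = 0.039) and 0.36 (adjusted p = 0.0484). The first call ended under 7 of 19 alternatives and the second under 15 of 19, among them leaving out any 1 of its 6 arrays. Rpl11, which binds MDM2, Rpl38, known from its part in Hox mRNA translation, and Rpl13a, part of the interferon-γ-activated GAIT complex, were not called in any comparison. The changes of Rpl13a with polyI:C were -0.22 (adjusted p = 0.101) and -0.31 (adjusted p = 0.0539).

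**Figure D4:**
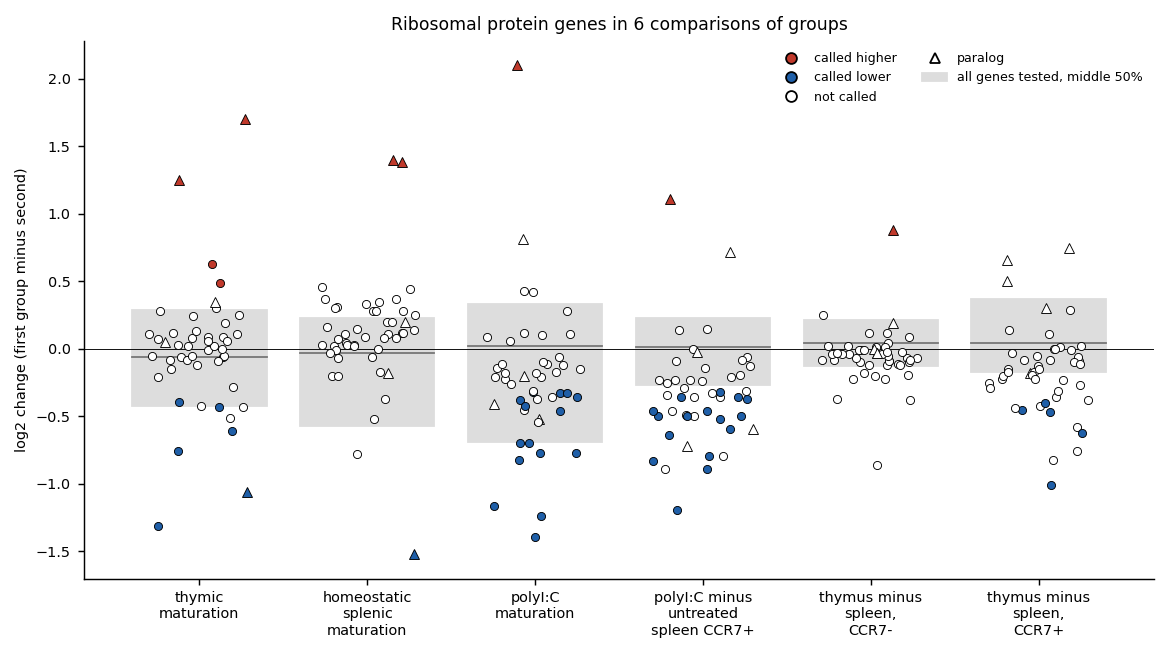
Log2 change of each tested member (circles for core members, triangles for paralogs; red for called higher, blue for called lower, white for not called) in 6 comparisons, with a grey box for the middle 50% of all 13629 genes tested and a line at their median. Core members lie near 0 in both homeostatic comparisons and shift below 0 in both polyI:C comparisons; the paralogs Rps27l and Rpl39l stand at the top of the homeostatic ones.

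The probe sets of one gene did not always move together. The brightest probe set of Rps3, whose protein sits at the mRNA entry channel, was not called, with changes of -0.15, -0.07, -0.21 and -0.14 in thymic, homeostatic splenic and polyI:C maturation and against homeostatically matured cells. A dimmer probe set of Rps3 read 9.74, 9.58 and 9.73 in immature thymus, 8.68, 8.76 and 8.51 in mature thymus, 9.72, 9.70 and 9.72 in immature spleen, 8.48, 8.97 and 8.76 in mature spleen and 7.86, 7.83 and 7.16 after polyI:C. It changed by -1.03, -0.97, -2.09 and -1.12 in the same order, with groups that did not overlap. In a fit over all probe sets its adjusted p-values were 0.000519, 0.000998, 6.33e-07 and 0.00087.

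A second case was Rpl22. Its brightest probe set changed by 0.04 in homeostatic splenic maturation and -0.32 with polyI:C. A dimmer one read 10.47, 10.87 and 10.44 in immature, 6.81, 9.48 and 8.86 in homeostatically matured and 7.99, 7.99 and 7.09 in polyI:C spleen cells, changes of -2.21 and -2.91. The third probe set of Rpl22 changed by 0.02 and -0.42, close to the brightest one. Which transcripts or parts of the mRNA these probe sets report is not stated in any source used here. A bright probe set of a ribosomal protein can also detect processed pseudogenes, so all members are uncertain in that respect.

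Over all 105 single-symbol probe sets of members, of which 97 were tested, 30 were lower and 3 higher in polyI:C maturation, where 24.2% of all probe sets tested were lower and 18.9% higher. Against homeostatically matured cells 28 were lower and 3 higher, where 8.04% were lower and 7.32% higher. Another 110 probe sets carried a member's symbol together with other symbols and were used for counts only. Of the 104 tested, 24 were lower and 1 higher in polyI:C maturation, and 26 were lower and 1 higher against homeostatically matured cells.

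Between the organs, immature cells differed at 1 member. Rps27l was 0.88 ± 0.25 higher in thymus than in spleen (1.84-fold, adjusted p = 0.0414), where 4.92% of all genes were higher in thymus, and 7 of 17 alternatives ended this call, among them leaving out any thymic CCR7- replicate or spleen CCR7- replicate 1 or 2. No core member was called by limma (0 higher and 1 lower at an unadjusted p below 0.05, smallest adjusted p 0.138), where 3.24% of all genes were lower in thymus. The change of 40 of the 42 core members had a 95% interval within a 2-fold difference either way. Rps27l was also the only member that limma called with the replicate number as a block (adjusted p = 0.0272).

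Between homeostatically matured cells 5 members, all core, were lower in thymus than in spleen (where 3.47% of all genes were lower) and 0 higher (where 8.71% were). They were Rpl14 (-1.01 ± 0.29, adjusted p = 0.0363), Rps6 (-0.62 ± 0.14, adjusted p = 0.0105), Rpl10a (-0.47 ± 0.14, adjusted p = 0.0464), Rpl6 (-0.45, adjusted p = 0.0298) and Rps3a1 (-0.40, adjusted p = 0.0492). With the replicate number as a block 3 members were lower and 1 higher: Rpl10a and Rps3a1 lost their calls and Rps27l gained one. Leaving out single arrays left 1 to 4 lower: 1, 2 and 2 without thymus CCR7+ replicates 1, 2 and 3, and 2 and 1 without spleen CCR7+ replicates 1 and 2. The call of Rps6 ended in 1 of 19 alternatives, that of Rpl14 in 9 of 19, among them leaving out any thymus CCR7+ array or spleen CCR7+ replicate 1 or 2, and that of Rpl10a in 12 of 18. Organ and the set label that spleen titles alone carry cannot be told apart.

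Whether maturation itself differed between thymus and spleen was tested as the difference of the 2 changes. No member passed in limma (0 higher and 1 lower at an unadjusted p below 0.05, where 3.18% of all genes passed after adjustment), and the smallest adjusted p of a core member was 0.199. That was Rpl14, whose change was 1.10 ± 0.41 lower in thymus (difference -1.10). The falls of Rps6, Rpl14, Rpl4, Rpl6 and Rpl8 in thymic maturation are therefore not shown to differ from the splenic changes.

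The other genes of the protein synthesis machinery are given from lists of known function, to be read against the shares of all genes that fell: 20.4% in thymic, 24.1% in homeostatic splenic and 28.0% in polyI:C maturation. The shares that rose were 16.8%, 12.3% and 18.4%. Ribosome biogenesis factors build and modify the subunits, and 58 of 60 listed were tested. In thymic maturation 45 fell and 2 rose (median change -1.19), in homeostatic splenic maturation 48 fell and 1 rose (-1.25), and in polyI:C maturation 50 fell and 2 rose (-1.76). Nop58, a core protein of box C/D small nucleolar ribonucleoproteins, fell by 2.50 ± 0.51 in homeostatic splenic maturation (adjusted p = 0.0015) and fell by 3.58 ± 0.51 with polyI:C (adjusted p = 4.48e-05). Wdr12, of the PeBoW complex that processes large subunit rRNA, fell by 2.86 ± 0.32 in thymus and by 3.17 ± 0.32 with polyI:C. Sbds, which helps release eIF6 from the large subunit, rose by 1.19, 0.78 and 1.14 in the 3 comparisons.

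Translation factors and other genes with TOP mRNAs (38 of 46 listed tested) had 6 lower and 4 higher in thymus, 10 lower and 0 higher in homeostatic splenic maturation, and 23 lower and 2 higher with polyI:C, with medians of -0.13, -0.24 and -0.69. The shares that fell in thymus and in homeostatic splenic maturation are near or under those of all genes. Against homeostatically matured cells polyI:C cells had 11 lower and 1 higher (-0.34), where 9.66% of all genes were lower and 8.58% higher. Eef2, the translocation factor and a TOP mRNA, had group means of 11.38 in immature, 10.73 in homeostatically matured and 8.86 in polyI:C spleen cells. It fell by 2.52 ± 0.30 with polyI:C (adjusted p = 8.98e-06). Abce1, the ribosome recycling ATPase, changed by -1.96, -2.36 and -3.85 in thymic, homeostatic splenic and polyI:C maturation. Etf1, the release factor that reads stop codons, rose by 1.47 ± 0.20 with polyI:C (adjusted p = 3.26e-05).

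Mitochondrial ribosomal proteins, which make up the separate ribosome of mitochondria, had 36 of 76 lower and 6 higher in thymus, 37 lower and 5 higher in homeostatic splenic maturation and 47 lower and 6 higher with polyI:C, with medians of -0.43, -0.51 and -0.82. Mrpl42 fell by 2.18, 1.62 and 2.87 in the 3 comparisons, whereas Mrpl38 rose by 1.48, 1.82 and 1.59. Against homeostatically matured cells polyI:C cells had 19 lower and 7 higher. No test was made of one list against another.

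**Figure D5:**
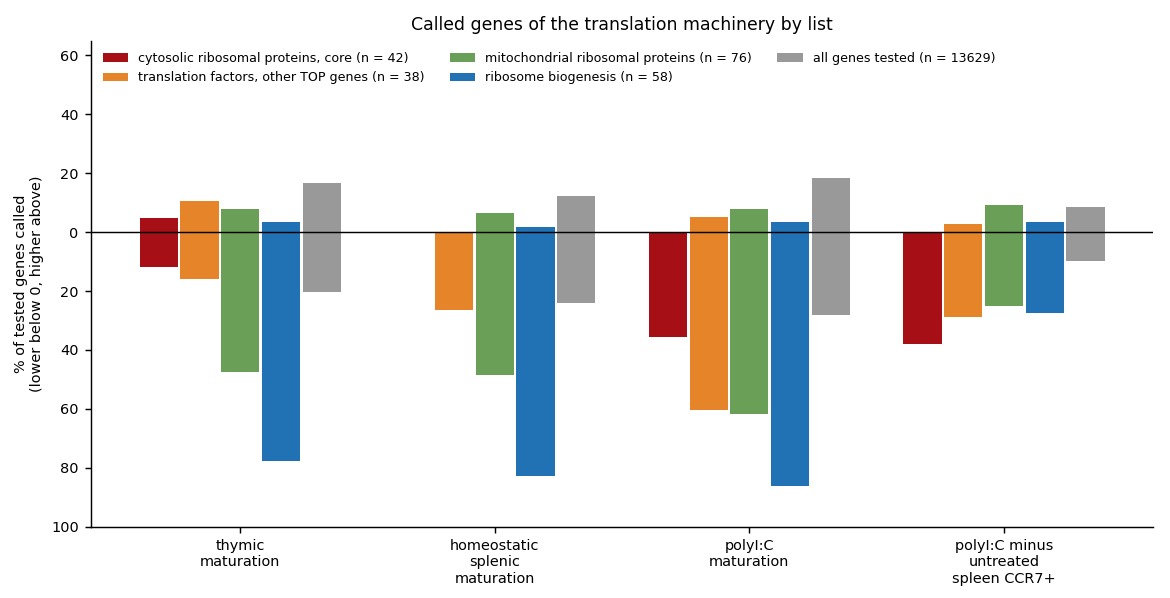
Percent of tested genes called higher (upward bars) and lower (downward bars) in 4 lists and over all genes tested, in thymic, homeostatic splenic and polyI:C maturation and in polyI:C against homeostatically matured spleen cells. Core ribosomal proteins are called lower in 35.7% of cases in polyI:C maturation and in none in homeostatic splenic maturation, where 48 of 58 ribosome biogenesis factors were lower.

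Regulators linked to the family were split in direction. Of 32 tested mTOR and MYC regulators 9 rose and 7 fell in thymus, 3 rose and 8 fell in homeostatic splenic maturation and 5 rose and 10 fell with polyI:C. Myc fell by 2.27 ± 0.59 in thymus (adjusted p = 0.00682) and fell by 2.04 ± 0.59 with polyI:C (adjusted p = 0.0103), and its homeostatic splenic change was -1.01 (adjusted p = 0.209). Rragd, a Rag GTPase that recruits mTORC1 to lysosomes, rose by 3.99, 4.20 and 4.75. Of 17 tested p53 targets, the class to which Rps27l is known to belong, 7 rose and 3 fell in thymus, 6 rose and 4 fell in homeostatic splenic maturation, and 4 rose and 5 fell with polyI:C. Over all genes 16.8% rose and 20.4% fell in thymus, 12.3% and 24.1% in homeostatic splenic maturation and 18.4% and 28.0% with polyI:C.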

How the data were processed

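RNA (40 ng per sample, 2 rounds of amplification, per the labels' protocols) was measured on Affymetrix whole-genome mouse arrays. The deposited values are log2 signals that the authors made with RMA and the affy package, per the submitters' processing notes; no source used here gives the versions or says which arrays were normalised together. RMA quantile-normalises arrays, so a shift of the whole transcriptome cannot be seen.

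Of 45101 probe sets 34958 carry 1 gene symbol, 932 several and 9211 are not listed. A gene's value was its single-symbol probe set with the highest mean over the 15 arrays. Group means were fitted on all 15 arrays with limma 3.58.1 in R 4.3.3 (lmFit, contrasts, eBayes), for genes that exceeded, on at least 3 arrays, the 40th percentile of the whole table. Sequences and figures used Python 3.11.15. Between 3 and 3 arrays an exact permutation test cannot go below 0.1. The procedure was tested on simulated data for 13629 genes. Independent normal values were drawn from each gene's mean over all 15 arrays and its pooled spread within groups. In the thymic CCR7+ arrays 200 genes were then changed. In thymic maturation 98 of 100 genes changed 4-fold and 69 of 100 changed 2-fold were recovered, with 8 false calls among 175. The real thymic comparison called 37.3% of all genes, so these rates need not hold there.

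Members were named where they were called, were paralogs or had known roles outside protein synthesis, and other lists by their largest called changes; Myc, Eef2 and Rragd values, the single probe sets and the examples among called members were picked after their values were seen. The members and lists were chosen with earlier results of these data known. Same-numbered arrays deviated together between organs (r of deviations from group means 0.52 to 0.57 for immature and 0.42 to 0.59 for mature cells), so the number was taken to pair them there. The organ p-values come from the fit without this pairing, except where the replicate number is named as a block. In the other comparisons at least 1 number had r of 0.00 or lower. The alternatives tried are given in the closing section.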

Additional observations from a re-analysis of the deposited data

How the results depend on the processing

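Of 28 alternative settings, in every one that tested them, the falls of Rps6 and Rpl14 and the rise of Rps27l in polyI:C maturation, the rises of Rps27l and Rpl39l in both homeostatic comparisons, the falls of Rpl14 and Rpl4 in thymus and that of Rpl7l1 in homeostatic splenic maturation kept direction and call. Counts of members that moved by more than 1.5 times follow, in each case without a test of the cause. With no filter on dim probe sets 2 were lower in homeostatic splenic maturation and 0 higher between immature organs. With a 60th percentile filter 2 were higher in polyI:C maturation and 3 lower between mature organs. With probe sets averaged per gene 4 were lower in homeostatic splenic maturation, 2 higher in polyI:C maturation, 1 lower between immature and 1 higher between mature organs; with the probe set of largest variance the counts were 3 lower in homeostatic splenic maturation, 2 higher against homeostatically matured cells, 0 higher between immature and 1 higher between mature organs, and the median in polyI:C maturation was -0.35. Rpl22 in homeostatic splenic maturation reversed to -0.72 and -2.21 under these 2 settings, since other probe sets enter. Without _s, _x and _a probe sets 22 members were tested, 2 were higher in thymus, 1 higher and 2 lower in homeostatic splenic maturation, 0 higher and 8 lower in polyI:C maturation, 6 lower against homeostatically matured cells, 0 higher between immature and 2 lower between mature organs, and 8 differed among the 5 groups. Quantile normalisation gave 3 lower between mature organs. Centring on array medians gave 2 lower in homeostatic splenic maturation and 1 higher and 1 lower between mature organs; centring on the 1362 brightest genes gave 2 lower in homeostatic splenic maturation. A trended, robust prior gave 2 lower in homeostatic splenic maturation and 2 higher in each polyI:C comparison. Array weights gave 2 higher in polyI:C maturation, 0 higher and 7 lower against homeostatically matured cells, 1 lower between immature organs and 1 higher and 2 lower between mature organs. Fitting only the groups compared gave 2 higher and 8 lower in polyI:C maturation, 0 higher and 1 lower against homeostatically matured cells and 0 lower between mature organs. In the same order 45.9%, 7.93% and 5.88% of all genes were called, against 46.4%, 18.2% and 12.2% in the main fit.

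With the replicate number as a block 3 were lower in homeostatic splenic maturation (Rpl12 and Rps6 gained), 2 higher and 11 lower in polyI:C maturation (Rpl39l gained, adjusted p = 0.041; Rpl22, Rpl7, Rps10 and Rps25 lost), 2 higher and 11 lower against homeostatically matured cells (Rps27l gained; Rpl22, Rplp0, Rplp2, Rps18 and Rps2 lost), and 1 higher and 3 lower between mature organs; thymic maturation kept 4 higher and 6 lower. Outside the organ comparisons the arrays share only a number.

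Leaving out 1 array at a time gave 2 to 4 higher in thymus. In homeostatic splenic maturation it gave 2 to 5 higher, 1 to 3 lower and a median of -0.01 to 0.16. In polyI:C maturation it gave 1 to 2 higher and 8 to 15 lower, and against homeostatically matured cells 0 to 1 higher and 7 to 16 lower. Between immature organs it gave 0 to 1 higher, between mature organs 0 to 2 higher and 1 to 4 lower, for the difference between organs 0 to 1 lower, and for the 5 groups 11 to 18. Without both arrays of high β-actin 3′ minus 5′ difference, a choice made after seeing the data, the medians were -0.01 in homeostatic splenic maturation and -0.24 against homeostatically matured cells, with 3 higher in polyI:C maturation, 6 lower against homeostatically matured cells and 1 higher and 2 lower between mature organs.

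Dim probe sets such as those of Rpl12, Rps27, Rpl39 and, in immature cells, Rpl39l lie near background, where RMA compresses differences. With 3 arrays a group and an unknown origin of replicates, small changes of bright members cannot be told apart from technical spread. The spleen CCR7+ and polyI:C groups each hold an array of high β-actin 3′ minus 5′ difference.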
